A study of Mus musculus with 3 samples.

Results

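Cells positive for a Cntn2-eGFP reporter (GFP) were compared with cells that carried neither reporter (NEG), gene by gene. A gene was taken where the deposited table gives its biotype as protein-coding and its value in the higher of both libraries is 20 or more, which held for 15389 of the 22740 protein-coding genes, of 39179 genes in the table in all. The study differentiated mouse embryonic stem cells in culture, with an interest in cells that resemble cardiac Purkinje fibres, and separated the cells by fluorescence-activated sorting. The cells were of a single stem cell line with eGFP reporting Contactin2, into which a lentivirus had brought mCherry under the alpha myosin heavy chain (aMHC, Myh6) promoter. Sodium nitroprusside, a donor of nitric oxide, was given to both populations at day 4 of differentiation, and both were sorted at day 25. GFP cells were positive for Cntn2:eGFP and dim for αMhc:mCherry, NEG cells were negative for both, and another population, positive for αMhc:mCherry (MHC), is given beside them for context. Each population is 1 library, so no test, SD or p-value can be given, and the statements below describe these libraries. A lentiviral transgene reports the Myh6 promoter where the virus inserted and is not the Myh6 gene itself.

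Purkinje fibres are the specialised heart muscle cells that carry the impulse quickly to the ventricular wall, and contactin 2 is a cell adhesion molecule of the immunoglobulin family that marks them in the mouse heart as well as marking some neurons. The mesothelium is the flat epithelium that lines body cavities, and its part on the heart, the epicardium, sends fibroblasts and smooth muscle into the heart wall. Cartilage and bone cells belong to the skeletal lineages, in which chondrocytes lay down type II collagen and aggrecan, Indian hedgehog and parathyroid hormone-related protein control their maturation, and osteoblasts lay down and mineralise type I collagen.

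A value in the table is a read count divided by the size factor of its library, here called normalised reads. Whole reads were recovered from these values and came to 52109065 in GFP, 47289405 in NEG and 52826956 in MHC, and 1 read was worth 0.914, 1.13 and 1.01 normalised reads. Col1a1 and Col1a2, for type I collagen, held 1.997% of the GFP reads, 8.86% of the NEG reads and 8.53% of the MHC reads. A fold is the ratio of 2 values, and its exact 95% interval (Clopper-Pearson, on the reads) covers counting error only, because no molecular identifiers were used and reads of one molecule may repeat. A gene is called higher or lower where log2((GFP + 1)/(NEG + 1)) reached 1 or -1, which sets a size and tests nothing. That scale understates the differences of low genes. Reads appear to have been counted over whole gene spans on either strand, so 3936 of the genes (25.6%) share ground with an overlapping gene whose reads come to 25% of theirs or more. They are called uncertain where named.

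The sorted gene served as a check of the labels and not as a result. Cntn2 (chr1:132509425-132542940, mm10) stood at 10045 normalised reads in GFP, 204 in NEG and 228 in MHC, 49.1-fold higher in GFP than NEG (95% interval 42.4 to 57.2). Myh6, whose promoter drives the other reporter, stood at 4694 in GFP, 3843 in NEG and 186924 in MHC. The mCherry-dim and mCherry-negative cells were thus 1.22-fold apart in Myh6 (1.17 to 1.28), while MHC was far above both.

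Of the 15389 genes, 2325 (15.1%) reached the 2-fold mark on the high side in GFP and 2179 (14.2%) on the low side, leaving 10885 (70.7%) between. The median log2 ratio was 0.05. The low side reached further than the high side: 481 genes were at least 10-fold lower and 294 at least 10-fold higher. The shares of 15.1% and 14.2% are the background against which the counts of every gene group below are read. A gene that reached 20 in 1 library only entered through that library, so the counts of groups with many such genes depend in part on the threshold. At the threshold itself, 351 genes had 20 to 25 normalised reads in the higher library, of which 72 were higher and 94 lower. Just outside it, 391 protein-coding genes had 15 to 20, of which 92 were higher and 88 lower.

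**Figure D1:**
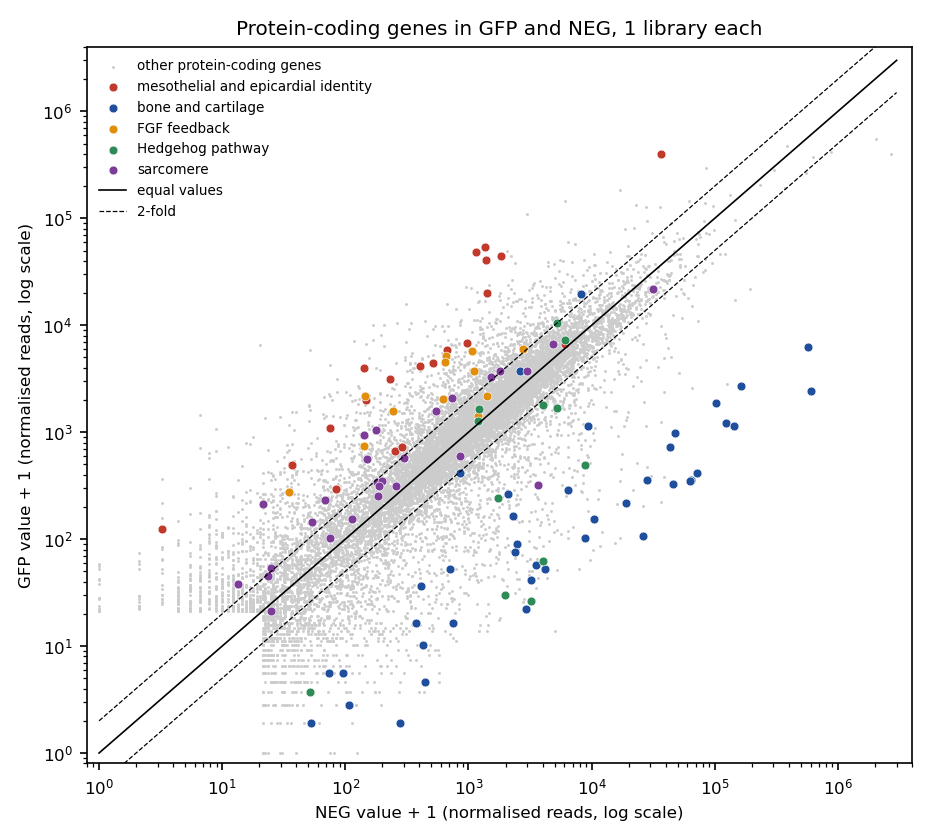
Values of the 15389 protein-coding genes in NEG (x axis) and GFP (y axis), both as normalised reads plus 1 on log scales, with 1 grey point per gene, coloured points for named gene groups, a solid line at equal values and dashed lines at 2-fold. Mesothelial genes lie above the upper dashed line in 19 of 20 cases, and bone genes lie below the lower one in 20 of 20.

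Genes of mesothelium and epicardium were higher in the Cntn2-eGFP cells, 19 of 20 measured, with a median log2 ratio of 3.74 and with Sema3d the exception. Upk3b, a uroplakin that marks mesothelial cells, stood at 54258 normalised reads in GFP, 1368 in NEG and 995 in MHC. Lrrn4, a leucine-rich repeat membrane protein of the same epithelium, stood at 48158, 1157 and 1004. GFP alone was high for both genes, and NEG and MHC lay close together. Upk3b was 39.7-fold higher in GFP than in NEG (37.5 to 42.0) and Lrrn4 41.6-fold (39.1 to 44.3). Muc16, the mucin that carries the mesothelial antigen CA125, stood at 122 in GFP against 2.26 in NEG and 2.03 in MHC, and the 2 reads in NEG leave its 54.2-fold difference with an interval of 14.7 to 452. Wt1 and Msln, chosen here after their values were seen because both are classical markers, were 8.66-fold and 8.87-fold higher. Wt1, the transcription factor of the epicardium, stood at 4433 in GFP, 512 in NEG and 641 in MHC, and Msln, which encodes mesothelin, at 5883, 663 and 1189. The epicardial transcription factors Tbx18 and Tcf21 were also high in GFP, but by less, 2.64-fold and 2.57-fold. Sema3d, an axon guidance ligand of the proepicardium, was 1.10-fold apart, at 6733 in GFP and 6094 in NEG. In sorted bulk samples such as these, fewer cells of a type and less RNA per cell cannot be told apart.

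Promoter windows were read from RefSeq (GRCm38.p6) for 11036 of the 15389 genes, each holding 250 bases before a RefSeq start of the gene and 50 after it. Those of Lrrn4 and Upk3b are shown because these genes had the 2 highest log2 ratios of the mesothelial list. By fold, Muc16 stood above both, at 54.2-fold, on the few reads in NEG given above. Capitals mark a match to one of 5 words, searched on both strands. These are the TATA box word TATAAA, the box read by NF-Y, CCAAT, the core bound by TEAD factors, GGAATG, the core bound by RUNX factors, ACCACA, and the core bound by GATA factors, AGATAA. Upk3b lies at chr5:136038246-136038545 on the plus strand and Lrrn4 at chr2:132880813-132881112 on the minus strand.
Upk3b: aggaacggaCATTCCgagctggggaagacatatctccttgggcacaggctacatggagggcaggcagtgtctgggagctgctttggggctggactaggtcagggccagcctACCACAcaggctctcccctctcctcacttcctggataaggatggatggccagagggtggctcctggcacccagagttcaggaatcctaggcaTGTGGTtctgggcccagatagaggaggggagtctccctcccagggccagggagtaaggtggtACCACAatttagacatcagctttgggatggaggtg
Lrrn4: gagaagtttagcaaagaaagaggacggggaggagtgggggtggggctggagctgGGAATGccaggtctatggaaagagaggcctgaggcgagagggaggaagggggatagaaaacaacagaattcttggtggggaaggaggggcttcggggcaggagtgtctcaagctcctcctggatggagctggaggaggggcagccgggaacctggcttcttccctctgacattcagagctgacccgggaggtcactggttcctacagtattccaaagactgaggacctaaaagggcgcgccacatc
Both windows hold the word GGAATG, in Upk3b on the minus strand, and that word occurs in 12.6% of all 11036 windows, in 14.3% of the 1615 windows of higher genes and in 14.1% of the 1490 windows of lower genes. The Upk3b window holds ACCACA 3 times over both strands, a word found in 12.3% of all windows, in 12.5% of those of higher and in 13.2% of those of lower genes. A match is a description of these letters and not a binding site.

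Genes of epithelial cells in general lay on the same side. Among keratins of simple and stratified epithelia, 9 of 10 measured were higher and none lower, with a median log2 ratio of 3.12 (14 were listed and 4 were below 20). Of the 10, 8 reached 20 in both libraries, and at a minimum of 100 the median was 2.66. Krt7, Krt8 and Krt18 encode the intermediate filaments of simple epithelia. Krt7 stood at 15730.1 normalised reads in GFP, 2044 in NEG and 881 in MHC, 7.70-fold higher in GFP than NEG (7.33 to 8.08). Krt8 was 10.3-fold higher, at 4182 against 407, and Krt18 13.5-fold, at 1986 against 147. Krt19 was 3.52-fold higher, at 291 against 82.5, and Krt10, a keratin of the epidermis, lay within 2-fold at 129 against 163. Tight junction genes were higher in 11 and lower in 2 of 19 measured, of 26 listed, with a median of 1.71. Of the 19, 13 reached 20 in both libraries. The claudins, which form the seal between epithelial cells, differed among themselves. Cldn3 stood at 644 in GFP, 6.78 in NEG and 21.3 in MHC, 94.9-fold higher (43.4 to 259.6), and Cldn15 at 7227, 167 and 165, 43.2-fold higher (36.7 to 51.2). Cldn11 was the reverse, at 2.74 in GFP, 30.5 in NEG and 102 in MHC. Cldn1 was 2.06-fold lower, and Cldn2 lay within 2-fold at 252 against 486. Cgnl1, a junction-associated paracingulin, was 14.1-fold higher, and Tjp1, the scaffold ZO-1, lay within 2-fold at 4958 against 3433. Cdh1, the E-cadherin of epithelial junctions, was low in each library but 8.09-fold higher in GFP, at 64.0 against 7.91 (3.73 to 20.9).

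Further genes that epithelia or mesothelia use were at the high extreme. Lrp2, the endocytic receptor megalin, stood at 10121 normalised reads in GFP, 168 in NEG and 157 in MHC, 60.1-fold higher (51.2 to 71.2), and its adaptor Dab2 was 2.82-fold higher. Aqp1, a water channel, stood at 23827, 1475 and 1429, 16.2-fold higher. Lamc3, for a laminin gamma chain of basement membrane, was 17.7-fold higher, while Lama2, the alpha chain of muscle basement membrane, was 36.4-fold lower. Of the 11 laminins measured, 3 were higher and 2 lower. The hemidesmosome integrin Itgb4 was 6.23-fold higher and Itga3 4.32-fold, while the collagen receptor Itga11 was 43.3-fold lower and Itga8 40.3-fold. The last of these stood at 84.1 in GFP, 3386 in NEG and 4505 in MHC.

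**Figure D2:**
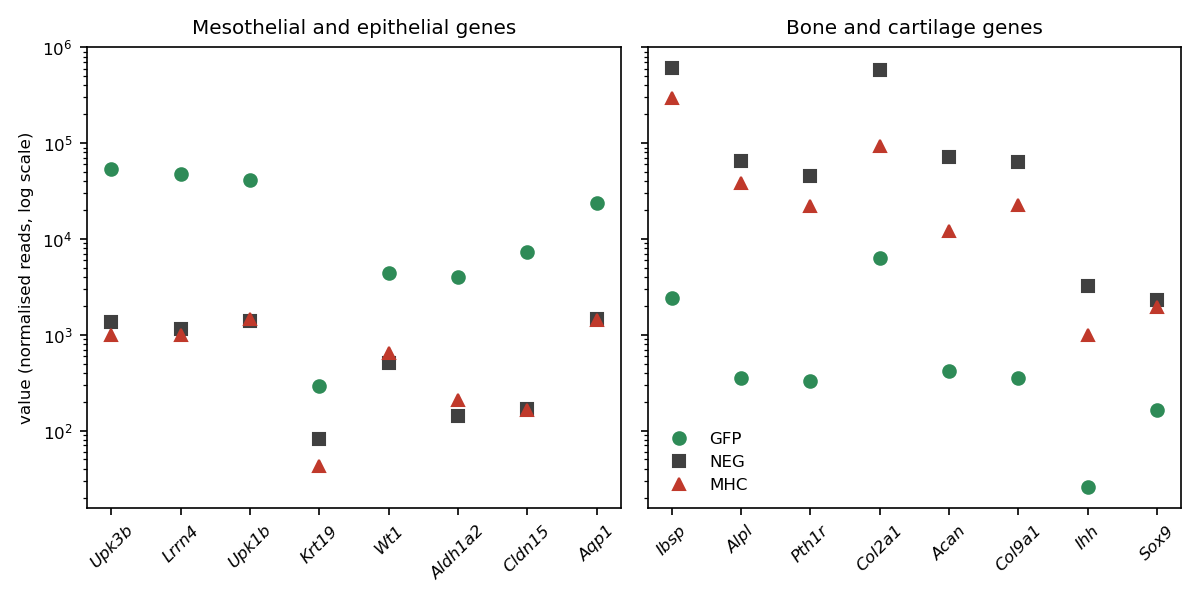
Values in GFP (circles), NEG (squares) and MHC (triangles), 1 library each, as normalised reads on a log scale, for 8 mesothelial and epithelial genes (left) and 8 bone and cartilage genes (right). On the left GFP lies above NEG and MHC for each gene shown, and on the right GFP lies below both. The genes are a selection. Among those left out, Sema3d, Krt10, Cldn2 and Sox6 were within 2-fold and Prg4 was higher in GFP. Cldn1, Cldn11 and 1 of the 3 uroplakins measured, also left out, were lower in GFP.

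Genes of bone and cartilage gave the widest gap, and in the other direction. All 20 bone genes listed were measured and all 20 were lower in GFP, with a median log2 ratio of -5.73, while 15 of them reached 20 in both libraries. Of 21 cartilage genes found and measured, 17 reached 20 in both libraries. Of the 21, 19 were lower and 1, Prg4, higher, with a median of -5.91. Against these counts the background was 14.2% lower. Ibsp (bone sialoprotein, chr5:104299171-104311469, mm10), which nucleates mineral, stood at 2413 normalised reads in GFP, 608631 in NEG and 293616 in MHC, 252-fold lower in GFP than NEG (243 to 262). NEG and MHC were both high and GFP alone was low. Alpl, the alkaline phosphatase of mineralisation, was 182-fold lower, at 355 in GFP, 64645 in NEG and 38345 in MHC. Mepe, a phosphoglycoprotein of osteocytes, had 1 read in GFP, worth 0.914, against 278 in NEG and 1198 in MHC, a 304-fold difference with an interval of 54.1 to 12056. Spp1, osteopontin, differed by less, 8.32-fold (7.84 to 8.84), and stood highest in MHC, at 1133 in GFP, 9425 in NEG and 71092 in MHC. Ank, a pyrophosphate transporter that limits mineral, showed the smallest gap of the list, 7.87-fold. The osteoblast transcription factors Runx2 and Sp7, chosen after their values were seen, were 22.3-fold and 68.2-fold lower. Runx2 stood at 288 in GFP against 6415 in NEG, and Sp7 at 154 against 10476.

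Genes of cartilage matrix were lower in GFP by similar factors. Col2a1, the type II collagen of cartilage, stood at 6314 normalised reads in GFP, 574523 in NEG and 94203 in MHC, 91.0-fold lower in GFP than NEG (88.9 to 93.2). Acan, which encodes aggrecan, stood at 415, 71155 and 12063 and was 171-fold lower (156 to 188). Col9a1, of the type IX collagen on cartilage fibrils, stood at 352, 63058 and 22717 and was 179-fold lower (162 to 199). In these genes NEG was above MHC as well as above GFP. Comp, a matrix glycoprotein of cartilage and tendon, was 60.3-fold lower, and Lect1, the cartilage inhibitor of vessel growth chondromodulin, 139.9-fold. Chad, chondroadherin, was 249-fold lower but is uncertain because Acsf2 overlaps it. Among the chondrocyte transcription factors, Sox9 was 13.9-fold lower, at 164 against 2281, and Sox5 2.10-fold, while Sox6 lay within 2-fold at 3723 against 2597. Prg4, the joint lubricant lubricin, was 2.41-fold higher, at 19643 in GFP, 8155 in NEG and 5276 in MHC, and is uncertain because it is overlapped by Tpr.

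The windows of Ibsp and Col9a1 are shown for the bone list and the cartilage list. Among the genes that no other gene makes uncertain, each had the lowest log2 ratio of its list. By fold, Mepe was further down than Ibsp, 304-fold against 252-fold lower. Ibsp lies at chr5:104299037-104299336 and Col9a1 at chr1:24177360-24177659, both on the plus strand of GRCm38.p6, and capitals again mark matches to the 5 words.
Ibsp: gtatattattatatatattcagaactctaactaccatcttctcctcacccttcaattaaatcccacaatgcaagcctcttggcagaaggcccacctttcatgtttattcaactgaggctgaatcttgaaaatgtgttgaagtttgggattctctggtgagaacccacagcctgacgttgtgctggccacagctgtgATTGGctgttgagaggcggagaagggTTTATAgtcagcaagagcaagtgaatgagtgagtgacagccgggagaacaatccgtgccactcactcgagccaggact
Col9a1: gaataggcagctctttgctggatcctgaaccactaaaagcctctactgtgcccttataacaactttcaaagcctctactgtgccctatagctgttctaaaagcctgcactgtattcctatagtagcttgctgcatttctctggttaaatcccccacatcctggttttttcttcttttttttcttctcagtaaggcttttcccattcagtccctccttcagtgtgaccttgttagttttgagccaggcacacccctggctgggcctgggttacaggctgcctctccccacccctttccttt
The Ibsp window holds TATAAA and, upstream of it, CCAAT, both on the minus strand and before the RefSeq start used. That start lies 116 bases inside the gene span given above, and both words lie within that span. None of the 5 words is in the Col9a1 window. TATAAA was found in 7.58% of all windows, in 10.7% of those of higher genes, in 9.53% of those of lower genes and in 6.58% of the 7931 windows of genes within 2-fold. CCAAT was found in 38.6% of all windows, in 39.1% of those of higher and in 34.2% of those of lower genes, and AGATAA in 6.45%, 7.55% and 6.04%.

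Fibrillar matrix was low in GFP more widely, with single members on the other side. Of 44 collagens measured, 30 were lower and 6 higher, with a median log2 ratio of -2.38. Col1a1 stood at 397562 normalised reads in GFP, 2676319.5 in NEG and 2537347 in MHC, 6.73-fold lower (6.71 to 6.75), and Col1a2 was 3.71-fold lower. Col22a1, a collagen of tissue junctions, was 173-fold lower, and Col11a2, of cartilage fibrils, 126-fold. Col14a1, a collagen on the surface of fibrils, was the reverse, at 17262 in GFP, 1794 in NEG and 874 in MHC, 9.62-fold higher (9.14 to 10.1). Col6a5 was 5.001-fold higher, at 14481 against 2895. Small leucine-rich proteoglycans, which bind collagen fibrils, were lower in 10 and higher in 1 of 15 measured, with a median of -2.54 (-1.39 without the 8 uncertain ones). Dcn, decorin, was the higher one, at 144191 in GFP, 62072 in NEG and 67849 in MHC, while Bgn, biglycan, was 2.63-fold lower. Fmod, fibromodulin, lay within 2-fold at 138402 against 82859.5, and Podnl1 was 159-fold lower on 3 reads in GFP (54.0 to 774).

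Elastic fibre and crosslinking genes were 4 higher and 9 lower of 27, against 15.1% and 14.2% of all genes, so the higher count is near its background. Ltbp2, a latent TGF-beta binding protein of microfibrils, stood at 182624 normalised reads in GFP, 17049.7 in NEG and 41023 in MHC, 10.7-fold higher (10.5 to 10.9). Efemp1 and Fbln2, of the fibulins, were 6.59-fold and 4.76-fold higher. Loxl4, a lysyl oxidase that crosslinks collagen, stood at 220.3, 36349 and 11589.7, 165-fold lower (145 to 188), and Postn, periostin, was 29.8-fold lower. Fn1, fibronectin, lay within 2-fold at 472978 against 387798. Of the matrix metalloproteinases, 2 were higher and 7 lower of 16 measured. Mmp13, the collagenase of hypertrophic cartilage, was 112-fold lower and highest in MHC, at 24.7 in GFP, 2776 in NEG and 11652 in MHC. Mmp17, a membrane-type protease, was 6.63-fold higher. Of 17 ADAMTS proteases, 5 were higher and 7 lower, with Adamts9 5.92-fold higher, at 23223 against 3926, and the procollagen protease Adamts2 5.03-fold lower, at 3926 against 19748.

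Markers of other mesenchymal cells were mixed. Of 14 fibroblast genes, 4 were higher and 7 lower. Thy1, a surface glycoprotein, was 11.4-fold higher, at 23864 normalised reads in GFP, 2094 in NEG and 3303 in MHC, and the growth factor receptor Pdgfra 3.71-fold, at 35383 against 9525. Fap, the fibroblast activation protein, stood at 16.5 in GFP, 1767 in NEG and 2083 in MHC, 107-fold lower (67.7 to 182), and Dpt, dermatopontin, was 62.4-fold lower. Vim, the mesenchymal filament vimentin, lay within 2-fold at 46857 against 49651. Smooth muscle genes were lower in 7 and higher in 1 of 11, with a median log2 ratio of -3.44. Acta2, smooth muscle actin, was 16.3-fold lower, at 2363 against 38419, and Myh11, smooth muscle myosin, 20.8-fold, at 192 against 3989. Mylk, the myosin light chain kinase, was the higher one, at 40839 in GFP, 5587 in NEG and 8156 in MHC. Of 7 tendon genes, 4 were lower and none higher, with Tnmd, tenomodulin, 10.4-fold lower.

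Transcription factors of mesenchyme were lower in 11 and higher in 1 of 16 measured, with a median log2 ratio of -2.22. Of the 16, 13 reached 20 in both libraries. Osr1, a factor of intermediate and lateral mesoderm, was the higher one, at 16987 normalised reads in GFP, 1209 in NEG and 710.0 in MHC, 14.1-fold (13.2 to 14.96). Its relative Osr2 was 26.0-fold lower on 3 reads in GFP (8.48 to 129). Foxc1 was 40.6-fold lower, at 51.2 against 2079, and Prrx1 5.05-fold, at 915 against 4617. Twist1, Zeb1 and Zeb2, which drive the epithelial to mesenchymal transition, lay within 2-fold. Twist1 stood at 1523 against 1567, Zeb1 at 1598 against 2129 and Zeb2 at 1526 against 2673. The Iroquois factors were lower in 5 of 5, with a median of -4.05, and Irx5 stood at 42.0 in GFP, 4341 in NEG and 846 in MHC, 103-fold lower (77.3 to 141). Of 24 forkhead factors measured, 3 were higher and 10 lower, with Foxd1 125-fold lower and Foxo4 7.27-fold higher, at 24770.2 against 3408. Hoxc13, a homeobox gene, stood at 297 in GFP against 4.52 in NEG and 7.09 in MHC, 65.7-fold higher (25.4 to 243).

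**Figure D3:**
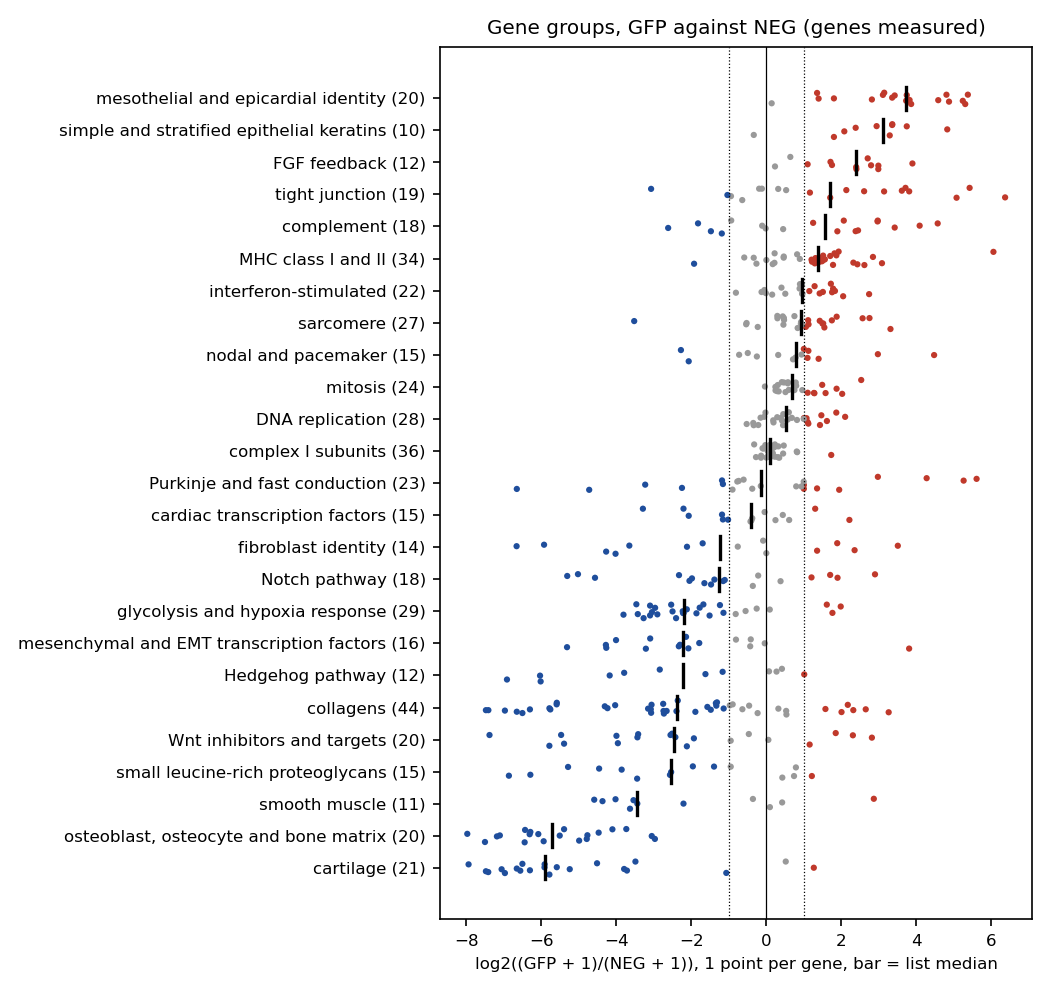
Log2 ratio of GFP over NEG, on values plus 1, for each measured gene (1 point per gene, red at 1 or more, blue at -1 or less, grey between) in selected gene groups, with the number measured in parentheses, a bar at each median and dotted lines at 2-fold. The mesothelial group has the highest median, 3.74, and the cartilage group the lowest, -5.91, among the groups shown.

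Genes of the fast conduction system did not lie on one side as a group. Of 25 listed, 23 were measured, 8 were higher in GFP and 6 lower, against 15.1% and 14.2% of all genes, and the median log2 ratio was -0.15. The sign of that median depends on the settings. It was -0.17 under the TMM scaling factors of edgeR and -0.20 after centring on the median gene, but 0.02 when scaled to total reads, 0.33 without the uncertain genes and likewise 0.33 at a minimum of 100. The higher count was 6 under TMM factors, the centring or a pseudocount of 10, and 10 when scaled to total reads. The list holds Cntn2, which chose the cells. Cntn2 is 1 of the 8 higher genes and its own direction is not a result. Of the 23 genes, 19 reached 20 in both libraries. Gja5, the fast connexin 40 of Purkinje fibres and atria, had 41 reads in GFP (37.5 normalised reads), none in NEG and 10.1 normalised reads in MHC, at least 11.1-fold higher in GFP against a floor of 3 reads. Kcnj5, a subunit of the acetylcholine-gated potassium channel, stood at 413 in GFP, 20.3 in NEG and 654 in MHC, 20.3-fold higher than NEG (12.7 to 34.6). Cacna1g, a T-type calcium channel, stood at 6217, 788 and 1210.4, 7.89-fold higher (7.29 to 8.54). For Kcnj5 MHC was the highest of the 3 libraries, and for Cacna1g GFP was.

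The remaining fast conduction genes lay on both sides. The transcription factors Nkx2-5, Etv1 and Tbx5, which shape the ventricular conduction system, were not high in GFP. Nkx2-5 stood at 23.8 normalised reads in GFP, 54.2 in NEG and 139 in MHC, 2.28-fold lower in GFP than NEG (1.39 to 3.83). Etv1 lay within 2-fold at 18.3 against 35.0, and Tbx5 at 219 against 285. Irx3, an Iroquois factor needed for fast conduction, was 26.8-fold lower, at 64.9 against 1742, and is uncertain because D230002A01Rik overlaps it. Kcnk3, a background potassium channel, was 4.82-fold lower, at 62.2 against 299. Irx5, given above with the Iroquois factors, had the lowest ratio of the list. Cacna1h, another T-type calcium channel, lay within 2-fold at 236 against 393, with 942 in MHC. Cpne5 also lay within 2-fold, at 57.6 against 88.1. Nppa, the atrial natriuretic peptide, was 4.05-fold higher, at 59.4 in GFP, 14.7 in NEG and 766 in MHC, and is uncertain through Gm13054. Ntm, an adhesion molecule of the IgLON family, was 2.58-fold higher, at 204 against 79.1, and Id2, an inhibitor of helix-loop-helix factors, 2.003-fold, at 4531 against 2262. The value of Id2 is near the 2-fold mark and fell short of it under TMM factors and the median centring. Kcne1 and Scn10a stayed below 20 in both libraries.

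Pacemaker genes and ion channels held some of the wide differences. Of 15 nodal genes, 6 were higher and 2 lower. Hcn4, the pacemaker channel, stood at 6945 normalised reads in GFP, 311 in NEG and 1002 in MHC, 22.4-fold higher (19.8 to 25.3). Isl1, a progenitor and sinus node factor, was 4.22-fold lower, at 132 against 556, and Shox2 lay within 2-fold at 22.9 against 38.4, uncertain through Rsrc1. Scn3b, an auxiliary sodium channel subunit, stood at 5917 in GFP, 50.8 in NEG and 46.6 in MHC, 116-fold higher (86.9 to 159.7). Scn4b, another such subunit, was 5.46-fold higher at 24.7 against 4.52 (1.90 to 21.5), while the pore subunit Scn3a was 13.2-fold lower, at 12.8 against 168. Over the 10 sodium channel subunits measured, 3 were higher and 3 lower, and 7 of the 10 reached 20 in both libraries. Of 61 potassium channel genes, 17 were higher and 21 lower, and 45 reached 20 in both libraries. Kcnc4 and Kcna4, of the voltage-gated family, were 15.3-fold and 14.8-fold higher, and the calcium-activated Kcnma1 was 63.3-fold lower. Of 17 calcium channel subunits, 5 were higher and 4 lower. Of 11 connexins measured, only 3 reached 20 in both libraries, so their counts are not read. Gja1, connexin 43 of working muscle and many other cells, lay within 2-fold at 13023 against 9796. Gja4 stood at 6.40 in GFP against 374 in NEG, 58.4-fold lower (28.0 to 146), and Gjb5 was 23.7-fold higher.

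**Figure D4:**
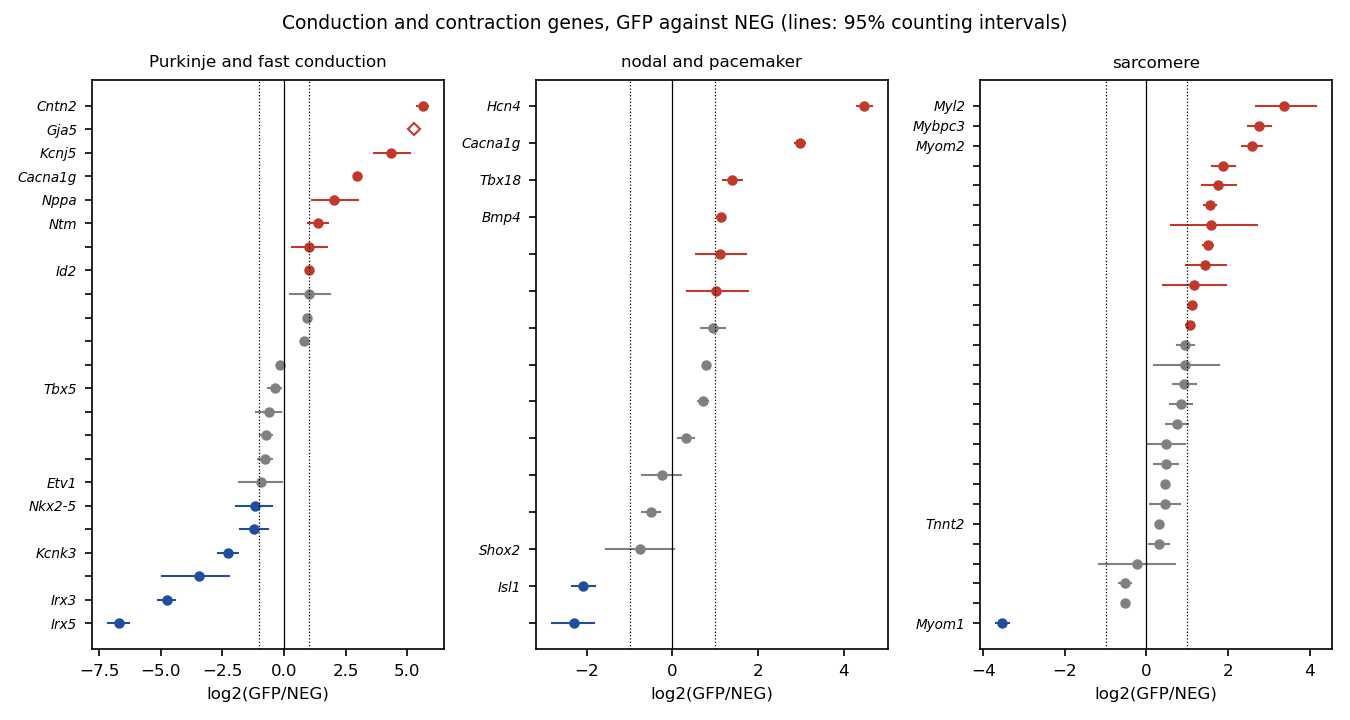
Log2 ratio of GFP over NEG for each measured gene of the fast conduction, nodal and sarcomere groups, with names for the genes given in the text, with points at the ratio of values, lines for the exact 95% counting interval, colours by the 2-fold rule on values plus 1, and open diamonds for genes without reads in NEG or GFP, placed on the values plus 1 scale. Fast conduction genes run from Cntn2 and Gja5 at the top to Irx5 at the bottom, on both sides of 0.

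Of 27 sarcomere genes measured, 12 were higher in GFP, 1 lower and 14 within 2-fold, with a median log2 ratio of 0.93. Mybpc3, the cardiac myosin-binding protein, stood at 951 normalised reads in GFP, 140.1 in NEG and 6129 in MHC, 6.79-fold higher in GFP than NEG (5.63 to 8.24). Myom2, of the M band, stood at 1045, 175 and 4489, 5.97-fold higher. Myl2, the ventricular light chain, stood at 211, 20.3 and 402. In these 3 genes GFP was between NEG and MHC. Tnnt2, cardiac troponin T, lay within 2-fold at 3707 in GFP and 3015 in NEG, with 20600.5 in MHC. Myom1 was the one lower gene, at 319.9 in GFP against 3692 in NEG, 11.5-fold, and is uncertain through Gm26561. The values of the list summed to 49401 in GFP, 50621 in NEG and 243205 in MHC. Over the same libraries the mesothelial list summed to 644299, 53911 and 60015. C3, on that list and a complement gene as well, made up most of those sums, at 396084, 36841 and 44076. Whether the mesothelial sums bear on the sarcomere sums was not tested.

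Calcium handling genes were 4 higher and 2 lower of 15. Casq2, which stores calcium in the sarcoplasmic reticulum, was 4.18-fold higher, at 312 normalised reads in GFP, 74.6 in NEG and 2126 in MHC. Sln, a regulator of the calcium pump, stood at 92.3, 7.91 and 312, 11.7-fold higher (5.46 to 29.8). Atp2a2, the pump itself, lay within 2-fold at 12890.1 against 12092, and Hrc was 3.52-fold lower, at 89.6 against 315. Cardiac transcription factors were 2 higher and 6 lower of 15. Gata6 was 4.65-fold higher, at 12947 in GFP, 2782 in NEG and 2999 in MHC, and Gata4 lay within 2-fold at 2671 against 1749. Mef2c was 9.80-fold lower, at 1093 against 10718, and Myocd, the coactivator of cardiac and smooth muscle genes, 4.79-fold lower, at 21.9 against 105. The T-box factors were 1 higher and 2 lower of 9, with Tbx18 the higher one and Tbx2 3.36-fold lower, at 164 against 549.

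Signalling pathways differed in opposite directions. Genes that FGF signalling through ERK is known to switch on, most of them its own brakes, were higher in 10 of 12 and lower in none, with a median log2 ratio of 2.40. Dusp6, the phosphatase that removes ERK activity, stood at 5189 normalised reads in GFP, 652 in NEG and 1032 in MHC, 7.96-fold higher (7.31 to 8.69). Dusp4 stood at 2172, 145 and 323, 15.02-fold higher (12.6 to 18.1), and Etv4, an ETS factor, at 276, 33.9 and 73.9. In each of these GFP was highest and MHC lay above NEG. Spry1 and Spred2, which restrain the pathway further up, lay within 2-fold, at 2193 against 1405 and 1415 against 1204. The 21 FGF ligands and receptors measured were 6 higher and 4 lower. Fgf8, a ligand of early mesoderm, stood at 1540.2 in GFP, 36.1 in NEG and 10.1 in MHC, 42.6-fold higher (30.1 to 62.5). Fgf9, an epicardial ligand chosen after its value was seen, was 6.61-fold higher, at 179 against 27.1. Fgfr3, the receptor of growth plate cartilage, was the reverse, at 129, 7092 and 3739.6, 55.0-fold lower (46.6 to 65.5), while Fgfr1 lay within 2-fold at 16171 against 22076.

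Hedgehog pathway genes were lower in GFP for 8 of 12 measured and higher for 1, with a median log2 ratio of -2.23. Ihh, the ligand of the growth plate, stood at 25.6 normalised reads in GFP, 3217 in NEG and 994 in MHC, 126-fold lower (86.8 to 189.5). The targets Gli1, Hhip and Ptch1, each of which is read out as a response to the ligand, were 67.9-fold, 66.0-fold and 18.1-fold lower. Gli1 stood at 29.3 in GFP, 1985 in NEG and 1965 in MHC, so that NEG and MHC were close. The receptor-coupled transducer Smo lay within 2-fold at 7288 against 6030.0, as did the inhibitor Sufu at 1639 against 1227. The coreceptor Cdon was 2.02-fold higher, at 10472 against 5189.6, a value near the 2-fold mark that fell short of it under TMM factors and the median centring.

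Wnt ligands and secreted modulators had members at both extremes. Of 11 ligands, 7 of them with 20 or more in both libraries, 5 were higher and 5 lower. Wnt5a, a ligand of the pathway without beta-catenin, stood at 37003 normalised reads in GFP, 4977 in NEG and 3875 in MHC, 7.43-fold higher (7.21 to 7.67). Wnt2b and Wnt9a were 13.6-fold and 10.3-fold higher, at 1935 against 142 and 2249.5 against 218. Wnt10b was 23.0-fold lower, at 32.0 against 734, and Wnt2, at 4.57 against 77.9, 17.1-fold lower. Inhibitors and targets were lower in 13 and higher in 4 of 20, with a median of -2.47. Of the 20, 16 reached 20 in both libraries. The secreted antagonists Frzb, Dkk2 and Wif1 were 169-fold, 59.8-fold and 45.5-fold lower, and Frzb stood at 101 in GFP, 16974 in NEG and 7047 in MHC. Sfrp2, another secreted antagonist, was the reverse, at 22658, 4566 and 2942, 4.96-fold higher. The agonist Rspo1 was 7.06-fold higher, at 6849 against 970.4. Of 9 Frizzled receptors, 2 were higher and 1 lower, and Fzd9 was that one, 33.3-fold.

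**Figure D5:**
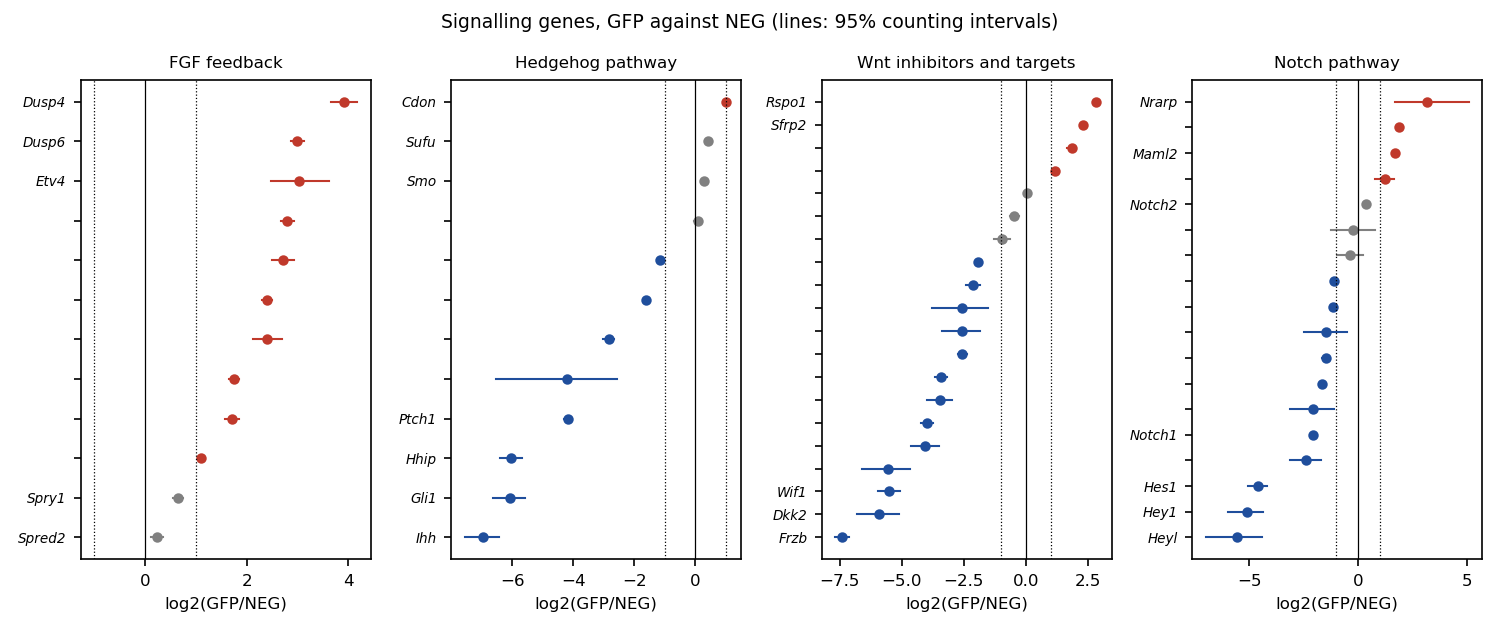
Log2 ratio of GFP over NEG for each measured gene of the FGF feedback, Hedgehog, Wnt modulator and target, and Notch groups, with names for the genes given in the text, points at the ratio of values, lines for the exact 95% counting interval and colours by the 2-fold rule on values plus 1. FGF feedback genes lie at or to the right of 0, and 8 of 12 Hedgehog genes lie to the left of the 2-fold line.

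Notch pathway genes were lower in 11 and higher in 4 of 18, with a median log2 ratio of -1.27. Of the 18, 12 reached 20 in both libraries. The target factors Hes1, Hey1 and Heyl were 24.3-fold, 34.9-fold and 46.8-fold lower. Hey1 stood at 13.7 normalised reads in GFP, 478 in NEG and 502 in MHC, and Heyl at 5.48, 256 and 37.5. NEG alone was high for Heyl, whereas NEG and MHC were close for Hey1. Among receptors, Notch1 was 4.14-fold lower, at 750.4 against 3109.9, and Notch2 lay within 2-fold at 7167 against 5505. Nrarp, a target that feeds back on the receptor, was 8.90-fold higher, at 40.2 against 4.52 (3.24 to 34.1), and the coactivator Maml2 3.26-fold, at 2992 against 917.

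BMP and TGF-beta genes were 6 higher and 14 lower of 40, against 15.1% and 14.2% of all genes, so the higher count is near its background. The BMP antagonist Grem1 was 49.6-fold lower, at 23.8 normalised reads in GFP, 1179 in NEG and 1076 in MHC, and the BMP-like ligand Gdf10 156-fold, at 62.2, 9722 and 12165. Bmp4 was 2.18-fold higher, at 5198 against 2385, and Bmp6 2.65-fold, at 1335 against 504. The target Id1 was 2.72-fold higher, at 6852 against 2522, and its relative Id3 lay within 2-fold at 11149 against 8234. Growth factor genes of other families had members on both sides. Vegfc, which guides lymphatic vessels, was 12.7-fold higher, at 10779 in GFP, 849 in NEG and 1162 in MHC, while Vegfa was 7.50-fold lower, at 1738, 13036 and 20279. Nrg1, neuregulin, which induces conduction and trabecular genes in the embryonic heart, was 17.2-fold higher, at 7855, 458 and 408 (15.5 to 19.01). Its receptor Erbb3 was 6.04-fold higher, at 355 against 58.7, and Erbb4 2.69-fold lower, at 76.8 against 207. Edn1, endothelin, and Ece1, which activates it, were 2.75-fold and 2.96-fold higher, and the receptor Ednrb was 8.55-fold lower, at 186 against 1595. The receptor Ednra was 15.7-fold lower, at 154 against 2412, and is uncertain through 4933431K23Rik.

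Of the retinoic acid genes named here, the enzymes of synthesis were higher and the breakdown enzyme Cyp26b1 was lower. Aldh1a2, the epicardial enzyme that makes retinoic acid, stood at 3982 normalised reads in GFP, 141 in NEG and 209 in MHC, 28.2-fold higher (23.6 to 34.0). Aldh1a1, with the same activity, was 5.51-fold higher, at 27693 against 5029, and Rdh10, of the step before, 3.01-fold. Cyp26b1, which degrades retinoic acid, stood at 8.23, 464 and 660.4, 56.4-fold lower (29.4 to 124), and Rbp4, the carrier of retinol in plasma, was 79.8-fold lower, at 30.2 against 2408. The list was 4 higher and 6 lower of 13, of which 10 reached 20 in both libraries. Insulin-like growth factor genes were 4 higher and 3 lower of 15. Pappa, a protease that frees the factors, was 18.3-fold higher, at 9773 against 533, and Stc1 and Stc2, its stanniocalcin inhibitors, stood apart, 11.1-fold higher and 62.8-fold lower. Igf2 was 2.08-fold lower, at 266341 in GFP, 553041 in NEG and 481459.9 in MHC.

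The nitric oxide and cGMP genes, the pathway that the given donor enters, were 4 higher and 6 lower of 20, with a median log2 ratio of 0.04. Gucy1b3, a subunit of the guanylate cyclase that nitric oxide binds, was 8.85-fold lower, at 69.5 normalised reads in GFP, 615 in NEG and 311 in MHC. Npr1, a receptor for natriuretic peptides, was 13.3-fold higher, at 4481, 337 and 206, and is uncertain through Gm16048. The kinase Prkg2 was 6.95-fold lower, at 245 against 1704. The adenylate cyclase and cAMP genes were 8 higher and 7 lower of 33, with a median of 0.07. Adcy5, a cyclase of heart muscle, was 11.9-fold lower, at 207 against 2449, and Pkia, the inhibitor of protein kinase A, was 6.51-fold higher, at 5049 against 776. Prkaca, the catalytic subunit, lay within 2-fold at 7308 against 4531. Both populations had received sodium nitroprusside, so its effect cannot be told apart here.

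Genes of innate immunity were on the high side in the Cntn2-eGFP cells. Complement genes were 10 higher and 4 lower of 18 measured, with a median log2 ratio of 1.57. C3, the central complement factor and a member of the mesothelial list as well, stood at 396084 normalised reads in GFP, 36841 in NEG and 44076 in MHC, 10.8-fold higher (10.6 to 10.9). Cfi, the protease that inactivates C3b, was 17.1-fold higher, at 4429 against 259, and C1ra, of the first component, 7.83-fold, at 57911 against 7396. Masp1, a protease of the lectin pathway, was 6.19-fold lower, at 98.7 against 611. Genes of the major histocompatibility complex, classes I and II, were 22 higher and 1 lower of 34, with a median of 1.39. Of the 34, 28 reached 20 in both libraries. That group includes near-identical genes whose reads the counting may share. H2-K1, a class I chain, was 2.56-fold higher, at 14678 in GFP, 5725 in NEG and 6902 in MHC, and Tapbp, which loads peptide, 2.45-fold. H2-Aa, a class II chain, was 8.59-fold higher, at 747 against 87.0, while its partner H2-Ab1 lay within 2-fold at 648 against 818.

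Interferon-stimulated genes were 10 higher and none lower of 22, with a median log2 ratio of 0.96. Gbp2 stood at 1473 normalised reads in GFP, 219 in NEG and 143 in MHC, 6.72-fold higher (5.79 to 7.84), and Ifit3 at 505, 141 and 132, 3.58-fold higher. Toll-like receptor genes with Cd14 were 6 higher and none lower of 10. Tlr4, the receptor for endotoxin, was 4.69-fold higher, at 2321 against 495, and its coreceptor Cd14 9.28-fold, at 7405 against 798. Blood cell markers were measured in 11 of 16 found, with 6 higher and 3 lower, and 8 of the 11 reached 20 in both libraries. Their values summed to 12543 in GFP, 14336 in NEG and 14505 in MHC. Cd34, uncertain through Gm16897, made up 846, 8832 and 8273 of those sums, and so most of the NEG and MHC sums. Ptprc, which encodes the leukocyte marker CD45 and was chosen after its value was seen, stood at 10.1, 3.39 and 4.05, below 20 in every library. The macrophage markers on the list were higher, Emr1 28.6-fold, at 96.9, 3.39 and 14.2 (9.52 to 141), and Cd68 4.84-fold, at 1220.3, 252 and 503 (4.201 to 5.61). The part of blood cells in the immune gene counts was not tested. Of 22 chemokine and receptor genes measured, 9 were higher and 5 lower (14 reached 20 in both libraries), with Cxcl16 16.6-fold higher, at 5096 against 306, and Cxcl12, a chemokine of stromal cells, 5.99-fold lower, at 2399 against 14374.

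Glycolysis and hypoxia genes were lower in 22 and higher in 3 of 29, with a median log2 ratio of -2.21. Ldha, lactate dehydrogenase, stood at 7629.7 normalised reads in GFP, 40469.6 in NEG and 27256 in MHC, 5.30-fold lower (5.18 to 5.43), and Slc16a3, the lactate exporter, was 10.8-fold lower, at 761 against 8209. P4ha2, a collagen prolyl hydroxylase that hypoxia induces, was 14.04-fold lower. Adm, adrenomedullin, and Aldoc, an aldolase, were on the other side, 3.96-fold and 3.40-fold higher. The respiratory chain did not share this difference. Genes listed as complex I subunits lay within 2-fold in 35 of 36 with a median of 0.10. The one higher gene was Ndufa4, 3.33-fold, at 4739 against 1424, which is named for complex I but encodes a cytochrome oxidase subunit. Cytochrome oxidase and ATP synthase subunits lay within 2-fold in 29 of 33. Cox4i2, the form of subunit IV known from hypoxia, stood at 35.6, 2055 and 2739.9, 57.6-fold lower (42.0 to 81.3). Atp5b lay within 2-fold at 24035 against 21334. Fatty acid and cardiac energy genes were 3 higher and 9 lower of 24.

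The reference genes Gapdh and Pgk1 belong to that pathway and stood with it. Gapdh was 4.04-fold lower and Pgk1 8.58-fold lower in GFP, at 911 against 3678 and 4062 against 34854 normalised reads. Other reference genes lay within 2-fold, among them Actb at 65451 against 55562 and Gusb at 2579 against 1548. Over 15 such genes 3 were lower and none higher, the third being Tfrc, the transferrin receptor, 10.4-fold lower.

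DNA replication genes were 9 higher and none lower of 28, with a median log2 ratio of 0.51. Without the 11 uncertain ones they were 9 higher of 17, with a median of 1.005. Mitosis genes were 8 higher and none lower of 24, with a median of 0.68. Mcm5, of the replicative helicase, stood at 578 normalised reads in GFP, 188 in NEG and 147 in MHC, 3.08-fold higher (2.59 to 3.68). Mki67, the proliferation antigen, stood at 545, 225 and 233, 2.42-fold higher, and Cdk1 at 550.3, 134 and 286, 4.09-fold higher. Pcna, the replication clamp, lay within 2-fold at 1937 against 2014. Myc, by contrast, was 4.66-fold lower, at 504 against 2347.

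Markers of most further cell types were few or divided. Of 28 neuronal genes, 16 were measured, 5 higher and 4 lower, and 10 of the 16 reached 20 in both libraries. Elavl2, a neuronal RNA-binding protein, stood at 900.4 normalised reads in GFP, 16.9 in NEG and 18.2 in MHC, 53.1-fold higher (32.1 to 95.3), and Scg2, secretogranin II of dense-core vesicles, at 16631, 3257 and 1779.7. Tubb3, neuronal tubulin, was 4.74-fold lower and is uncertain through Gm20388. Of 12 glial and neural crest genes, 6 were measured, 4 of them higher and none lower, with a median log2 ratio of 1.88. Among them Mbp, myelin basic protein, was 6.89-fold higher, at 11557 against 1676. Endothelial genes were 2 higher and 5 lower of 9 measured, with Flt1 29.2-fold lower and Erg 39.5-fold. Of 12 pluripotency genes, 2 reached 20, and both lay within 2-fold. Of 13 endoderm genes, 7 were measured, 2 higher and 1 lower, and 3 of the 7 reached 20 in both libraries. Afp, alpha-fetoprotein, was 20.2-fold higher on 1 read in NEG (3.31 to 831), and Foxa2, a factor of definitive endoderm, was 41.1-fold lower, at 3.66 in GFP, 150.2 in NEG and 53.7 in MHC (15.7 to 153). The perinatal and adult skeletal myosins Myh8, Myh1 and Myh2 were 11.1-fold, 9.24-fold and 11.3-fold higher, yet they sit side by side, Myh2 has nearly the counts of Myh4 and Gm12300 overlaps Myh1, so they are uncertain and not independent.

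At the high extreme stood receptors, channels and enzymes of several families. Prokr2, a receptor for prokineticins (chr2:132337733-132385447, mm10), had the highest ratio among genes of 100 or more, at 6571 normalised reads in GFP, 19.2 in NEG and 21.3 in MHC, 342-fold higher (214 to 588). Prokr1 was 8.77-fold higher, at 307 against 35.0. Ano5, an anoctamin membrane protein, stood at 1441, 5.65 and 11.1, 255-fold higher (109 to 787), and Ano1, the calcium-activated chloride channel, was 49.9-fold lower, at 48.4 against 2419.7. Camkv, a kinase-like vesicle protein, was 126-fold higher, at 710.2 against 5.65, and Rab19, a small GTPase, 85.1-fold, at 673 against 7.91. Lrrtm1, a synaptic adhesion protein, was 134-fold higher and is uncertain because it lies within Ctnna2. Bche, butyrylcholinesterase, stood at 15654, 307 and 309, 50.9-fold higher (45.2 to 57.6), and Rtn1, a neuroendocrine reticulon, at 8158, 195 and 209, 41.7-fold higher. GFP alone was high for Prokr2, Ano5, Bche and Rtn1, whereas Ano1 was low in GFP.

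At the low extreme stood Ibsp, Alpl, Acan and Col9a1, given above, with others that skeletal cells use. Pth1r, the receptor for parathyroid hormone and its related protein, stood at 328 normalised reads in GFP, 45439 in NEG and 22038 in MHC, 138-fold lower (125 to 154). Panx3, a pannexin channel of osteoblasts and chondrocytes, was 129-fold lower, at 202, 26151 and 6716. Car12, a carbonic anhydrase, was 137-fold lower, at 85.0 against 11636. Dpep1 and Crispld2, 150.3-fold and 129-fold lower, are both uncertain through Gm20388, and for both MHC was the highest library, at 59357 and 27626.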

How the data were processed

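RNA from 3 sorted populations was measured, with 1 library each. Per the labels' protocols, RNA came from sorted cells through a small-sample kit, and TruSeq libraries gave single reads of 50 bases (HiSeq2500). Build mm10 and the tools STAR 2.3.0e, DESeq2 1.2.10, bedtools 2.17.0 and FastQC 0.11.2 are named per the submitters' processing notes, with their roles not given in the sources used here. For each gene and library, the authors deposited 1 signal value. Division by the step between a library's low values returned whole reads for 100% of values within a tolerance of 0.01. A read over several genes adds to each, so totals are sums over genes. Of 1544 genes nested in a host gene by their deposited coordinates (300 or more reads), 99.9% had no more reads than the host. So did 100% of the 914 that lie on the strand opposite the host, with strands from GENCODE M21. Columns were matched to populations by name, and each population's label gave its group.

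A count model needs replicates, so none was fitted to the recovered reads and none calls a gene. Ratios used a pseudocount of 1 and folds used the deposited values. Where a library had 0 reads of a gene, the fold was set against 3 reads there, worth 2.74 in GFP and 3.39 in NEG. In 347 genes the counts of all 3 libraries were within 10% of those of a gene within 500 kb that does not overlap them, and these are called uncertain too where they are named. Of 88 gene lists with 2009 entries, 2003 entries were found. Genes named were drawn from the 15 highest and 15 lowest ratios among genes of 100 or more and of 1000 or more. In each list they were drawn from the 3 with the highest mean and the 3 at each end, and from the whole fast conduction list. A gene named outside this rule was picked with its values in view, and the text says so. A few list members count in their list but are not reported here. The members and lists were chosen with earlier results of these data known. Alternatives were a pseudocount of 10, scaling to total reads, TMM factors (edgeR 4.0.16), centring on the median gene, a minimum of 100 or none, and leaving out overlapped genes. The computation was tested on simulated data. Python 3.11.15, numpy 2.4.6, pandas 2.3.3 and scipy 1.17.1 were used.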

Additional observations from a re-analysis of the deposited data

Results flagged for a closer look

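Genes of other biotypes lie outside the protein-coding comparison, and 3 of them, with no gene overlapping them and 100 or more normalised reads, stood furthest above NEG. Gm12245, a pseudogene, had a log2 ratio of 4.89, at 700.2 in GFP, 22.6 in NEG and 21.3 in MHC. Gm12153, a long intergenic RNA, had 4.47, at 546, 23.7 and 30.4. Gm26578, another long intergenic RNA, had 4.33, at 1109 against 54.2 and 42.5. For each of the 3, GFP alone was high.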

How the results depend on the processing

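No paired analysis was possible because each population is 1 library. The counts of 2325 higher and 2179 lower genes stayed within 1.5 times of these under the pseudocount of 10, both other scalings, the median centring, the minimum of 100 and the removal of overlapped genes. Without a minimum the lower count was 3512, as 20430 genes then entered. Scaling to total reads shifted the median of all genes by 0.17 on the log2 scale, and gave 2791 higher and 1898 lower. The fast conduction median of -0.15 became 0.47 without a minimum. Of the lists whose median was at least 1 in size, 3 changed sign: blood cell markers from 1.52 to -0.011 at a minimum of 100, serpins from -1.10 to 0.15 and Sox factors from -1.43 to 0.34 without a minimum. Medians nearer 0 changed sign in further lists. The cause was not tested. The medians of the mesothelial, collagen and sarcomere lists kept their sign under the 7 alternatives. Depth limits genes of few reads, where intervals are wide, and 1 library per population leaves the spread between cultures unknown.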

Other observations

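Guidance and adhesion families held further wide differences. Ephrins and their receptors were 10 higher and 4 lower of 21 measured, against 15.1% and 14.2% of all genes. Ephb1 stood at 2216 normalised reads in GFP, 107 in NEG and 35.5 in MHC, 20.6-fold higher (95% interval 16.8 to 25.6), while Epha8 was 110.2-fold lower, at 12.8, 1409.8 and 191. Semaphorins and plexins were 5 higher and 11 lower of 29, with Sema3c, a guidance ligand of the outflow tract, 23.4-fold higher, at 15768 against 674, and the plexin Plxna4 9.86-fold higher. Ntn4, a netrin of basement membranes, was 12.9-fold higher, at 11115 against 863, and the netrin receptors Unc5b and Unc5c were 12.8-fold and 24.1-fold lower. Genes of sulfotransferases, vanins and glutathione transferases were 12 higher and 4 lower of 30. The vanins Vnn1 and Vnn3, which recycle pantothenate, were 60.7-fold and 34.2-fold higher, with Vnn1 at 7134 in GFP, 117 in NEG and 99.3 in MHC. Akr1c18, an enzyme that inactivates progesterone, stood at 1355, 21.5 and 3.04, 63.1-fold higher (40.3 to 105), and its near copies could share reads with it.

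Imprinted genes were 6 higher and 9 lower of 23. Dlk1 was 2.35-fold higher, at 73260.3 against 31109, and Zim1 and Slc38a4 were 19.1-fold and 18.04-fold lower. Immediate early genes were 7 higher and 3 lower of 20, with Btg2 3.70-fold higher and Fos within 2-fold at 59671 against 38523. Of 36 clustered histone genes measured, 35 lay within 2-fold, and near-identical copies among them are uncertain. Serpina5 had 0 reads in GFP, 110 in NEG and 304 in MHC, and a ribosomal RNA gene, Gm23289, that does not overlap it had the same 3 counts. Gm22202, a non-coding RNA, had 5 reads in GFP and 490 in NEG, 121-fold lower (51.5 to 375). Gm25255, annotated as a microRNA, had 1 read in GFP and 161 in NEG, a 199-fold difference with an interval of 35.2 to 7907.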
